A study of Mus musculus with 3 samples.

Results

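In the chromatin of sorted hair follicle stem cells (HFSCs), 3328 wide peak intervals of the Msx2-WT library had no counterpart in either Msx2-KO library. They were chosen by the peak lists themselves. Each was a distinct interval of at least 600 bases on chromosomes 1 to 19 of the Msx2-WT list that shared no base with any interval of either Msx2-KO list, and no score was required. The 3328 members were 21.2% of the 15723 Msx2-WT intervals of that width, and came from 207561 distinct autosomal intervals over the 3 lists. For comparison, the same rule applied to Msx2-KO replicate 2 gave 10191 of 35517 wide intervals (28.7%) that the other lists lacked, and applied to Msx2-KO replicate 1 it gave 1708 of 16453 (10.4%). Without a width minimum, 64.7% of Msx2-WT intervals were absent from both Msx2-KO lists. These shares follow from the rule and are given as a description.

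Omni-ATAC-seq was run on 3 libraries of CD34+CD49f+Sca-1- HFSCs from dorsal skin of mice aged 6 months whose follicles were in telogen, when hair growth rests. One library came from Msx2-WT mice, which per the study's methods were hair cycle-matched C57BL/6J animals, and 2 came from Msx2-KO mice, in which a neomycin cassette was inserted upstream of exon 2 of Msx2 by gene targeting, and all 3 libraries were labelled as skin. How many animals stood behind each library is not given in the sources used here. By the labels both Msx2-KO libraries shared a batch that the Msx2-WT library did not, and the effects of batch and genotype cannot be told apart. The Msx2-KO files name their peaks cKO, and for replicate 1 also with a library number other than the labelled one. Groups were taken from the labels. With 1 Msx2-WT library, and with all 3 lists used to choose the members, no test between genotypes was run. Wilson intervals below cover counting error alone, and tags counted with duplicate reads kept are not independent molecules.

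Tn5 transposase cuts DNA where nucleosomes are absent or loose, so a peak of cuts marks an open promoter or a candidate enhancer. Enhancers differ between cell types far more than promoters do, and in skin they separate the stem cells of the follicle bulge from the differentiating layers of the epidermis and from the sebaceous gland. Msx2 encodes a homeobox transcription factor of skin and hair follicle, and homeobox proteins bind sites with a TAAT core. Promoters of HFSC marker genes were mostly open, although not these alone. All 14 genes of a list of HFSC markers had a peak summit within 1500 bases of a start site in Msx2-WT. The same held for 12 of them in Msx2-KO replicate 1, where the sorting marker Cd34 and Nfatc1 had none. It held for 13 in replicate 2, where Krt14 had none. At Krt15, a keratin of the bulge, the promoter summit held 27, 5 and 23 tags in that order of libraries. In Msx2-WT, 12 of 13 genes of differentiating epidermis and 28 of 32 TGF-beta and BMP genes also had such a summit. Of 33 leukocyte genes, 2 did. The count therefore does not single out HFSCs.

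The reference sequence around the summits shows what the members were made of. The first 4 windows below are from the 10 members with the largest −log10 q, a score of how unlikely a summit is under the local background of its own library. The next 4 were chosen after their values were seen, as members at genes of the skin barrier and upper follicle. Each is 201 bases centred on the summit, 5′ to 3′ on the plus strand of GRCm38, read from RefSeq. Capitals mark CACCTG (an E-box), TGANTCA (the AP-1 site) and GATAAG (the GATA site), each searched on both strands, so that CAGGTG and CTTATC are the same sites read from the other strand. The Stfa3 window holds none of them.
Ppp2r5a, chr1:191484905-191485105: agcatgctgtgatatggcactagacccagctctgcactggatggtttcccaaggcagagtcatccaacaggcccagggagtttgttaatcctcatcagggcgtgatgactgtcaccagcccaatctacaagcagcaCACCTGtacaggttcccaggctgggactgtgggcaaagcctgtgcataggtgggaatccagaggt
Irx3, chr8:91783106-91783306: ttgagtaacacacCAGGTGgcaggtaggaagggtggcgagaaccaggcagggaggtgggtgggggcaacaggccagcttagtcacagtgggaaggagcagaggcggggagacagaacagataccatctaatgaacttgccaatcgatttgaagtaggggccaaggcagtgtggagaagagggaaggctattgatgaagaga
Stfa3, chr16:36468299-36468499: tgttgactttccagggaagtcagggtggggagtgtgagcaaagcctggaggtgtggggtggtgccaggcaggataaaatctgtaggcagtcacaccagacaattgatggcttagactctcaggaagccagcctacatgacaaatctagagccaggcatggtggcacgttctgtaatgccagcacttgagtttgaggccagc
Togaram2, chr17:71705850-71706050: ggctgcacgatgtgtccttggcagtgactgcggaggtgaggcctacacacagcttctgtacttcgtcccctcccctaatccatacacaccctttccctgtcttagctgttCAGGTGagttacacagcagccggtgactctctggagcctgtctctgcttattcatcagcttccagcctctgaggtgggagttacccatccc
Klk9, chr7:43791086-43791286: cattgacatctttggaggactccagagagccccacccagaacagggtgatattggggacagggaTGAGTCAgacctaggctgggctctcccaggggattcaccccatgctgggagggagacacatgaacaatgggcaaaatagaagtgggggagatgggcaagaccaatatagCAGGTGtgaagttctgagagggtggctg
Krt79, chr15:101940507-101940707: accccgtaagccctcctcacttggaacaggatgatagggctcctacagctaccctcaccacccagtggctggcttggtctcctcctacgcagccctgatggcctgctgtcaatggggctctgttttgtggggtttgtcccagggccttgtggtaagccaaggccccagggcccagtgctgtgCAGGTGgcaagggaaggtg
Grhl3, chr4:135597697-135597897: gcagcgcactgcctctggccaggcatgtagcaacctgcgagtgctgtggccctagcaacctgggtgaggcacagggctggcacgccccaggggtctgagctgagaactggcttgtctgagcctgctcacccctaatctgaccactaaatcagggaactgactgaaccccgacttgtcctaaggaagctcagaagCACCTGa
Krt10, chr11:99403821-99404021: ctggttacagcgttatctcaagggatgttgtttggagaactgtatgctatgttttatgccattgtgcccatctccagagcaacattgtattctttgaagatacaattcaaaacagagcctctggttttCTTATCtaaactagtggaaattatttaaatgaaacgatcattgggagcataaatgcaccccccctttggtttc

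Few letters of these members are marked as repeats in the reference, with shares over the whole interval between 2.31% at Grhl3 and 22.0% at Krt79. Of the 10 strongest members, 8 had the E-box within 150 bases of the summit, all but those at Stfa3 and Clint1. A different kind of member is shown by the next 3 windows, of 121 bases each and with no letters marked.
Gdf6, chr4:10137559-10137679: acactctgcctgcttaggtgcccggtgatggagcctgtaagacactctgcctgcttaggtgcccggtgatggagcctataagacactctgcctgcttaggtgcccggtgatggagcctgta
Tcf7l1, chr6:72820756-72820876: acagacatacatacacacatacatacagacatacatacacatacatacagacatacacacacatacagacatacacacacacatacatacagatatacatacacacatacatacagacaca
Kif2a, chr13:107119646-107119766: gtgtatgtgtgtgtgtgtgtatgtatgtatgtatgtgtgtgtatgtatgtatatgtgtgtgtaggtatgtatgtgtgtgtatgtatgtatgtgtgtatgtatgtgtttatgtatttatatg

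The Tcf7l1 and Kif2a windows are built of short AC, AT, GT and AG steps and are wholly marked as repeats. The Gdf6 window repeats a longer unit, and the reference marks 2.88% of the letters of the whole interval. The Gdf6 member was the 8th strongest of all. To count such sequence, the distinct words of 4 letters were counted in the 301 bases around each summit. The Kif2a window had 22 such words, the Tcf7l1 window 19 and the Gdf6 window 49, whereas the median member had 151. Of the 3328 members, 551 had fewer than 80 (16.6%, 95% interval 15.3 to 17.9), a limit set after the values were seen. Among the wide Msx2-WT intervals that a Msx2-KO list shared, 143 of 12395 had so few (1.15%), and in the set of Msx2-KO replicate 2 it was 58 of 10191 (0.569%). The set of Msx2-KO replicate 1 had 23 of 1708 (1.35%). Simple sequence was commoner among members with −log10 q above 2, at 308 of 1291 (23.9%), than among the others, at 243 of 2037 (11.9%). In 244 of the 551 the commonest word was ACAC in any rotation or strand, and in 166 it was ACAT. These 551 members had a median of 9 tags and lay a median of 47905 bases from the nearest start site, against 8 tags and 49437 bases in the other 2777. More of them passed a −log10 q of 2, at 55.9% against 35.4%, and a smaller share lay at promoters, at 1.63% (9) against 3.75% (104). Whether the aligner placed reads differently in the 3 libraries at such sequence was not tested.

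**Figure D1:**
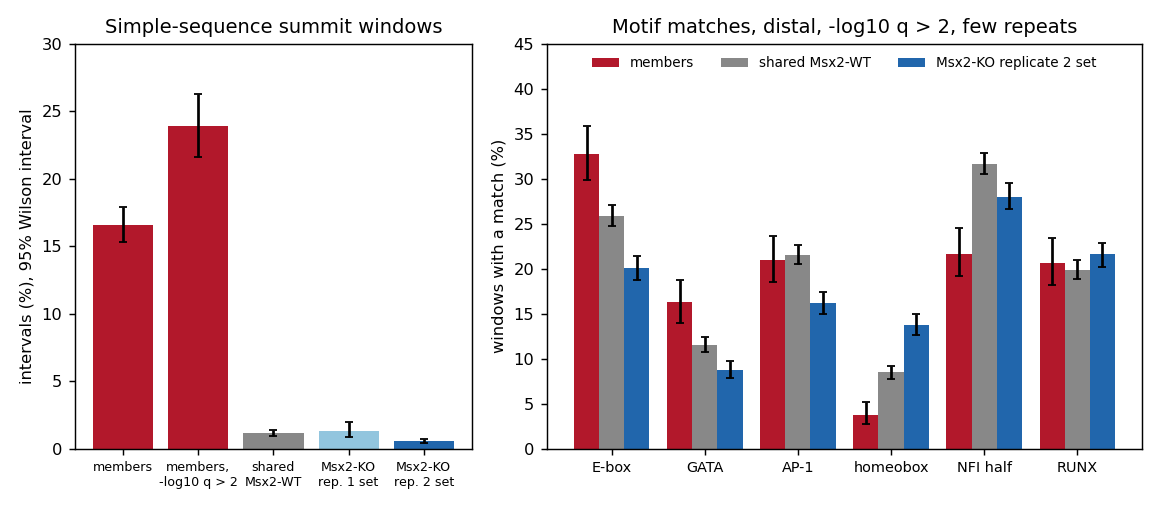
The left plot gives the share of intervals whose 301-base summit window held fewer than 80 distinct words of 4 letters, and the right plot the share of windows with a match to each motif among distal intervals with −log10 q above 2 and at most 50% repeat letters, with 95% Wilson intervals as error bars. Simple sequence stands at 16.6% of members against 1.15% and 0.569%, and the E-box and GATA bars are highest, and the homeobox (TAATTA) bar lowest, in the members.

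The members were modest peaks. Their median width was 700 bases (quartiles 640 and 808). The widest, 3.74 kb upstream of AY761185, was 2324 bases and lay wholly in repeat letters of the reference. The median −log10 q was 1.63 and 1291 members (38.8%) passed 2, whereas the shared wide intervals had a median of 9.61. The number of tags under the summit followed from the fold and −log10 p that were deposited, and ran from 5 to 69 with a median of 8, compared with 20 in the shared intervals. In 346 members (10.4%) the interval held more than 1 summit. Total width was 2493 kb.

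Depth differed between the libraries and bears on what absence from a list means. The commonest local background, used here as the depth, was 1.74 tags for the Msx2-WT library, and 0.476 and 0.790 for the Msx2-KO replicates 1 and 2. The lowest tag number listed was 5, 3 and 3. Scaled by these backgrounds, the median member would hold 2.19 tags in replicate 1 and 3.63 in replicate 2. Of the members, 907 (27.3%) would reach the lowest listed tag number in both Msx2-KO libraries, and 2800 (84.1%) in replicate 2. Of the 1291 with −log10 q above 2, 870 (67.4%) would reach it in both and all 1291 in replicate 2. The scaled numbers are averages, with a median of 3.28 in replicate 1 for these 1291, and a count around such a value can fall under 3. For members that would not reach the lowest listed tag number in a library, a difference from that library was not detectable at this depth. For members that scale to little over it, absence is uncertain as well. The set of Msx2-KO replicate 2 was in the reverse position towards Msx2-WT, since all of its 10191 intervals scaled to at least the 5 tags listed there. Towards Msx2-KO replicate 1, 6428 (63.1%) scaled to at least the 3 tags listed there, and so 63.1% did in both.

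**Figure D2:**
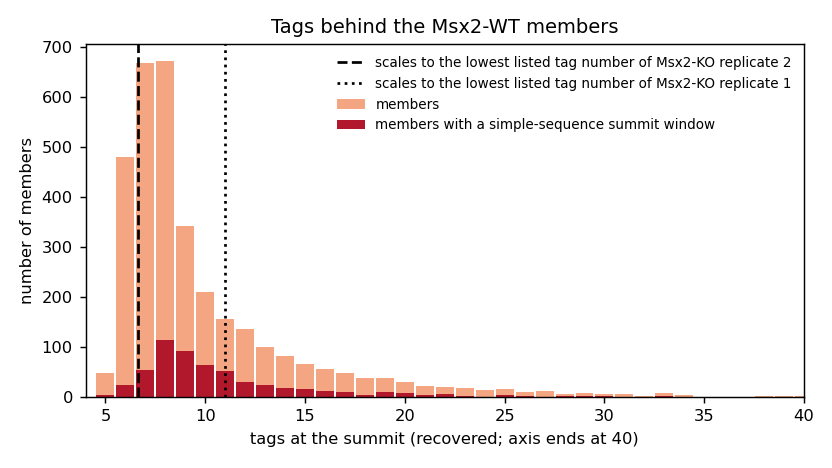
The histogram gives the number of members (vertical axis) by the tags recovered at the summit (horizontal axis, ending at 40), with members of simple sequence in dark red. The dashed and dotted lines mark the Msx2-WT tags that scale to the 3 tags that are the lowest number listed in Msx2-KO replicates 2 and 1, and 907 of the 3328 members lie at or beyond the dotted line.

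Absence depended on width in both lists. In Msx2-WT it fell from 83.9% of intervals under 300 bases to 30.6% from 600 to under 700 bases and 6.23% at 1500 bases or more. In Msx2-KO replicate 2 it fell from 82.3% to 50.8% and 5.82% over the same classes. The shortest interval listed was 188 bases in Msx2-WT and 283 and 256 in Msx2-KO replicates 1 and 2, so 600 bases is not the same cut in each. No step was seen at the width minimum, with 501 of 1346 Msx2-WT intervals from 580 to under 600 bases absent (37.2%) and 461 of 1251 from 600 to under 620 bases (36.9%). The overlap rule was rarely decided by a few bases: 8 wide Msx2-WT intervals were kept out by a shared stretch of at most 10 bases, and 37 members had a Msx2-KO interval within 100 bases. The median member lay 8523 bases from the nearest Msx2-KO interval, 27150 from the nearest of replicate 1 and 9636 from the nearest of replicate 2.

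**Figure D3:**
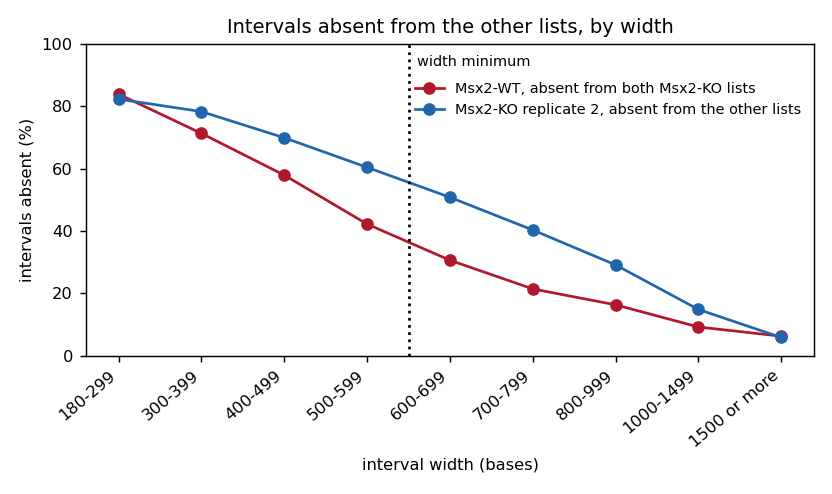
Points give the share of intervals in each width class (horizontal axis, bases) that the other lists lacked (vertical axis, %), for Msx2-WT in red and Msx2-KO replicate 2 in blue, and the dotted line is the 600-base minimum. Both lines fall with width, from 83.9% and 82.3% to 6.23% and 5.82%.

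Most members lay away from promoters. Of 3328 summits, 1586 (47.7%) lay between genes, 1301 (39.1%) in introns of protein-coding genes, 278 (8.35%) in noncoding or other genes and 50 in exons, 22 of them in an untranslated part. Promoters, taken as 1500 bases on either side of a protein-coding start site, held 113 (3.40%, 95% interval 2.83 to 4.07). Among wide Msx2-WT intervals shared with a Msx2-KO list the promoter share was 46.7%, and in the set of Msx2-KO replicate 2 it was 8.36% (7.84 to 8.91). The lower share of the members rested on Msx2-KO replicate 2, without which it was 12.2% of 5946. The median distance to the nearest start site was 49294 bases in the members, 4286 in the shared intervals and 47671 in the set of Msx2-KO replicate 2. G+C content around the summit had a median of 45.8% in the members, 55.5% in the shared intervals and 46.5% in the Msx2-KO replicate 2 set. Repeat letters filled over 50% of the whole interval in 768 members (23.1%), in 1.94% of the shared intervals and in 12.0% of the Msx2-KO replicate 2 set.

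**Figure D4:**
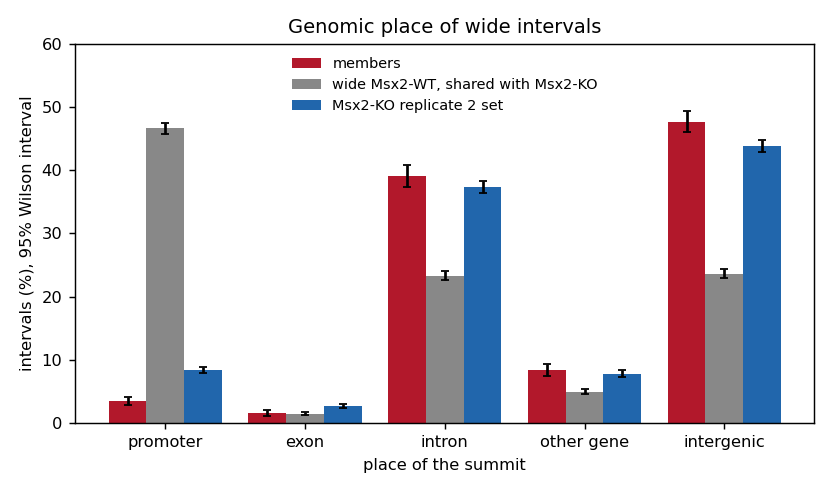
Bars give the share of summits (%) in each genomic place for the 3328 members, the 12395 shared wide Msx2-WT intervals and the 10191 intervals of the Msx2-KO replicate 2 set, with 95% Wilson intervals. Promoters hold 3.40%, 46.7% and 8.36%, and introns and intergenic DNA hold most of both absent sets.

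Among the 10 strongest members, 9 were distal to any start site by more than 10 kb. A member 32.6 kb upstream of Apcdd1, an inhibitor of Wnt signalling in the hair follicle, held 39 tags (95% Poisson interval 27.7 to 53.3) with a −log10 q of 22.7. That summit scales to 10.7 tags in Msx2-KO replicate 1, and the nearest intervals of the Msx2-KO replicates 1 and 2 were 3121 and 3013 bases away. One 18.7 kb downstream of the start of Irx3, an Iroquois homeobox factor, held 38 tags. One upstream of Stfa3, a cysteine protease inhibitor, held 43 tags, and one 15.5 kb from Metrnl, which encodes a secreted factor, held 31. Others lay 88.0 kb upstream of Ppp2r5a (33 tags), in an intron at Togaram2 (43), 13.5 kb upstream of Ppfia1 (45), 293 kb from Gdf6 (33) and 46.6 kb upstream of Clint1 (33). All 10 scaled to at least 8.48 tags in Msx2-KO replicate 1.

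Of the 113 promoter members, the strongest lay at a gene of a protease family of the skin. Its summit 705 bases upstream of Klk9, a kallikrein serine protease, held 25 tags with a −log10 q of 13.7. The following promoters were chosen after their values were seen. Unc13d, which primes secretory granules for release, had 28 tags, Clca3a2 had 24, Cracr2b had 25, Orm3 had 21 and Card14, a scaffold of NF-kappaB signalling in keratinocytes, had 22. The rule also named promoters of listed genes and families. Krt79, a keratin of the upper follicle canal, had 25 tags with a −log10 q of 8.31, and Il22ra2, a soluble receptor for interleukin 22, had 20. Slc39a1, a zinc importer, had 21 tags. Ccl27a, a chemokine of keratinocytes, had 22 tags, with 24 at its copy Ccl27b and 25 at Gm13306 on the same chromosome. Reads of these gene copies can be placed at one or another, and their tags are uncertain.

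Marker lists were then read against the background. With −log10 q above 2, 10.3% of the 12502 wide Msx2-WT intervals and 15.4% of the 27210 wide intervals of Msx2-KO replicate 2 were absent from the other lists. For genes of differentiating epidermis, 10 of 38 such Msx2-WT intervals were members (26.3%, 95% interval 15.0 to 42.0), while 2 of 60 in Msx2-KO replicate 2 were absent elsewhere (3.33%, 0.919 to 11.4). With no score limit, as in the rule, it was 10 of 39 in Msx2-WT (25.6%, 14.6 to 41.1). That 95% interval included the 21.2% of all wide Msx2-WT intervals. In Msx2-KO replicate 2 it was then 5 of 68 (7.35%, 3.18 to 16.1), against 28.7%. Of the 13 genes, 7 had a member. All genes together had one at 12.4% of 20696, and the set of Msx2-KO replicate 2 touched 27.2% of them. The 10 members near these genes included none at a promoter. The lists were chosen with earlier results known, and no test was made of them.

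By gene, Krtdap, a secreted protein of the upper epidermal layers, had a member 16.5 kb downstream of its start with 24 tags and a −log10 q of 16.5. Krt10, the suprabasal keratin, had one 14.6 kb upstream with 27 tags (17.8 to 39.3). Grhl3 and Grhl1, grainyhead factors of barrier formation, had members with 25 and 22 tags at 24.2 and 6.66 kb upstream. Klf4, a factor of terminal differentiation, had 2 with 20 and 14 tags. Gata3 had 3 with 20, 12 and 12 tags, 1 of which (12 tags, 103 kb away) was simple sequence. Ivl, which encodes the envelope protein involucrin, had 1 with 10 tags. At the promoters of the list, Msx2-WT tags scaled by depth went both ways against the Msx2-KO tags. Of 12 promoters with a summit in Msx2-WT, 4 held at least the scaled number in Msx2-KO replicate 1 and 6 in replicate 2. Of those that held fewer, 3 and 2 scaled to under the 3 tags that are the lowest listed there. Calml3, a calmodulin-like protein, held 17 tags in Msx2-WT, which scale to 4.65 and 7.72, and held 25 and 20 in the Msx2-KO replicates. Grhl1 held 48, which scale to 13.1 and 21.8, and held 28 and 51. Klf4 and Gata3 were also above the scaled number in both. Krtdap held 16 tags, which scale to 4.38 and 7.26, and had no summit in either Msx2-KO list. Krt10 held 10 tags, which scale to 2.74 and 4.54, against none and 5, and in replicate 1 a difference was not detectable. Grhl3 held 16, which scale to 4.38 and 7.26, against none and 7. Ivl held 15, which scale to 4.10 and 6.81, against none and 5. Sbsn held 45, which scale to 12.3 and 20.4, against 5 and 17. Sfn held 59, which scale to 16.1 and 26.8, against 13 and 32. Loricrin and filaggrin (Lor, Flg) held 6 tags each, which scale to under the 3 tags listed in either Msx2-KO library, so their absence there was not detectable as a difference. Krt1 had no summit in any library. By the same count in Msx2-KO replicates 1 and 2, the HFSC list had 11 and 13 of 14 promoters at or above the scaled number. The TGF-beta and BMP list had 25 and 27 of 28, and the Wnt list 15 and 27 of 31. Adhesion and matrix genes had 15 and 21 of 23, and sebaceous and upper follicle genes 4 and 3 of 7. Promoters below the scaled number that scaled to under 3 tags numbered 6 and 1 for Wnt. They numbered 2 and 0 for adhesion and matrix and 1 and 0 for HFSC genes. The count was not made over all promoters, so how usual these numbers are cannot be told. The share of differentiating cells in each sort, and its part in these counts, was not tested.

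For the sebaceous and upper follicle list, 7 of 23 intervals with −log10 q above 2 were members (30.4%, 15.6 to 50.9), compared with 6 of 29 in Msx2-KO replicate 2 (20.7%, 9.85 to 38.4). With no score limit there were 8 members, at 5 of 11 genes. Lrig1, which marks stem cells of the junctional zone, had 1 member with 23 tags in an intron. Gata6, a factor of the sebaceous duct, had 3 with 15, 27 and 12 tags between 58.8 and 104 kb downstream of its start. Prdm1 had 2 with 14 and 16 tags, Plet1 had 1 with 8, and Krt79 had the promoter member given above. The confidence intervals of the Msx2-WT and Msx2-KO replicate 2 shares overlapped.

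**Figure D5:**
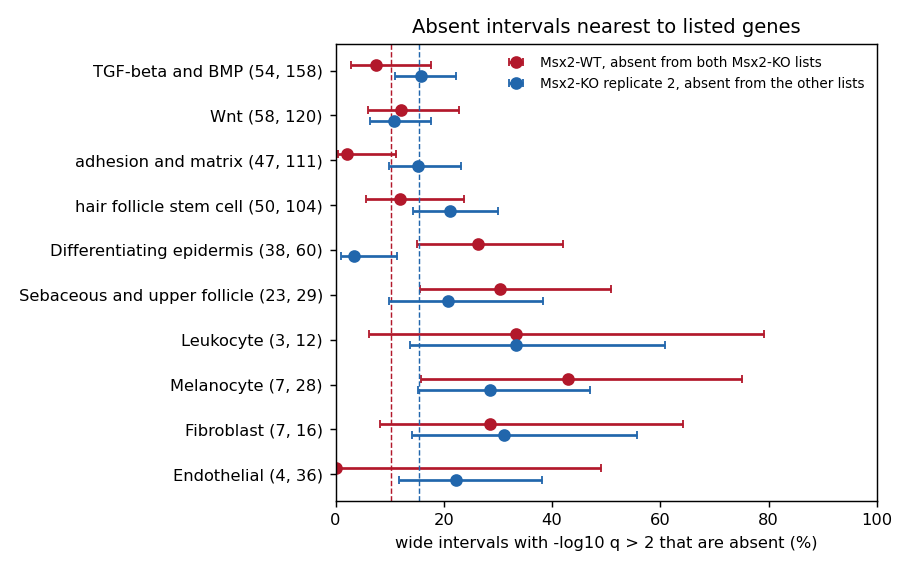
Points give, for each list, the share of wide intervals with −log10 q above 2 nearest to its genes that were absent from the other lists (horizontal axis, %), for Msx2-WT (red) and Msx2-KO replicate 2 (blue), with 95% Wilson intervals, the numbers of intervals in brackets, and dashed lines at the 10.3% and 15.4% of all genes. Differentiating epidermis stands at 26.3% and 3.33%.

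For the pathways of the hair cycle the 95% interval of the share included the background of 10.3%. Wnt genes, which drive follicle growth, had 7 members among 58 intervals with −log10 q above 2 (12.1%). The strongest lay 33.0 kb upstream of Wnt7b, a ligand of bulge and epidermis, with 33 tags and a −log10 q of 16.6. A member upstream of Tcf7l1, a repressor of Wnt targets in HFSCs, held 26 tags in the simple sequence shown above. Wnt10a had a member with 14 tags in an intron, Wif1 had 2 and Tcf7l2 had 2, and Fzd6, Fzd7, Wnt16, Ctnnb1 and Axin2 had 1 each with 6 to 11 tags. Simple sequence made up 6 of the 12 Wnt members, those at Tcf7l1, Wif1, Tcf7l2 and Fzd7, and 4 of the 7 with −log10 q above 2. TGF-beta and BMP genes had 4 among 54 (7.41%), the strongest a member with 23 tags 614 kb from Id2, a BMP target. Adhesion and matrix genes had 1 among 47 (2.13%), and at Postn and Fbln1 the 3 members held 6 tags each. Of the HFSC list, Nfatc1, a factor of stem cell quiescence, had 2 members with 9 and 25 tags in introns, Sox9 had 3, the nearest 352 kb from its start, and Tcf7l1 had the member already named. The HFSC list stood at 12.0% (6 of 50).

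Markers of cells outside the follicle epithelium had few wide intervals and 2 to 6 members a list, with no score limit. The share of wide Msx2-WT intervals that were members was 6 of 12 for melanocyte genes (95% interval 25.4 to 74.6%), 3 of 5 for leukocyte genes (23.1 to 88.2%), 3 of 10 for endothelial genes (30.0%, 10.8 to 60.3) and 2 of 8 for fibroblast genes (25.0%, 7.15 to 59.1), against 21.2% over all genes. With −log10 q above 2 it was 3 of 7 for melanocyte genes (42.9%, lower 95% limit 15.8%). As for the epidermis and the sebaceous and upper follicle lists, the lower limit was above the 10.3% of all genes. In Msx2-KO replicate 2, 15 of 25 wide intervals of leukocyte genes were absent elsewhere (95% interval 40.7 to 76.6%). It was 15 of 35 for melanocyte genes (42.9%), 11 of 24 for fibroblast genes (45.8%) and 14 of 43 for endothelial genes (32.6%). Over all genes it was 28.7%, and only the leukocyte interval lay wholly above that. With −log10 q above 2 the melanocyte share of Msx2-KO replicate 2 was 8 of 28 (28.6%, 15.3 to 47.1), against 15.4%. Leukocyte genes had 3 members over 32 genes, nearest to Il7r, Itgax and Csf1r, with 6 to 9 tags. Endothelial genes had 3, at Kdr and Erg, with 6 to 8 tags. Fibroblast genes had 2, of which the one 1.24 kb from a Pdgfra start was a promoter member with 12 tags. Melanocyte genes had 6, nearest to Tyrp1, Kit and Mlana, with 7 to 15 tags, and the 3 nearest to Tyrp1 lay 826 kb or more away. Simple sequence made up 3 of the melanocyte members. Promoter summits of the leukocyte list were found at 2 genes of the Msx2-WT list and at 0 and 6 genes of the Msx2-KO lists, and Ptprc, the defining leukocyte gene, had none in any library. For melanocyte genes they were found at 5, 2 and 6 of 9, for fibroblast genes at 4, 2 and 5 of 10 and for endothelial genes at 4, 1 and 4 of 9. The part of such cells in the members was not tested.

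The nearest genes of the members were spread widely. There were 2568, of which 2020 had 1 member, 395 had 2 and 153 had 3 or more. Of the 2568 genes, 1437 (56.0%) also had an interval of the Msx2-KO replicate 2 set nearest to them, which was 25.5% of that set's 5633 genes. Over all 20696 protein-coding genes, 27.2% had an interval of that set and 12.4% had a member. Many genes have no wide interval near them, and the overlap was not tested. The gene with the most members was Myom2, which encodes a protein of the muscle sarcomere. Its 9 members held 6 to 12 tags and lay 144530 to 1028303 bases from its start, outside the 75.9 kb of the gene. Of these, 3 lay in introns of Csmd1, and others in noncoding genes such as Gm7706. Robo1, an axon guidance receptor, and Pdcd6ip had 6 each. Robo1 itself spans 738 kb, and Adgrl3, with 5 members, spans 805 kb.

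By family, 131 members were nearest to predicted genes with Gm names (3.94%, against 2.42% of all wide Msx2-WT intervals and 4.08% of the Msx2-KO replicate 2 set). In the same order, genes with Rik names had 96 (2.88%, against 2.16% and 2.53%) and solute carriers 83 (2.49%, against 2.07% and 1.95%). Zinc finger genes had 49 (1.47%, against 2.07% and 1.42%) and vomeronasal receptor genes 27 (0.811%, against 0.248% and 0.599%). Olfactory receptor genes had 15 (0.451%, against 0.172% and 0.736%), although they make up 5.44% of genes. Keratin genes had 6 (0.180%, 0.0827 to 0.393), compared with 0.153% of all wide Msx2-WT intervals and 3 in the Msx2-KO replicate 2 set (0.0294%, 0.0100 to 0.0865). Collagen genes had 9 (0.270%, against 0.223% of all wide Msx2-WT intervals), interleukins and their receptors 15 (0.451%, against 0.394%) and beta-defensin genes 7 (0.210%, 0.102 to 0.434, against 0.0763%). Hox, histone and Tmc genes had none, with 10, 32 and 4 wide Msx2-WT intervals nearest to them.

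Members seldom lay close together. Within 50 kb of another member were 671 (20.2%, 18.8 to 21.6), in 305 runs, of which 48 had 3 or more members and the largest had 5. In the set of Msx2-KO replicate 2 it was 40.4%, but that set is larger, and its 3328 intervals with the largest −log10 p gave 21.4% (20.1 to 22.9). Of the 4 runs with 5 members, 3 had a median local background within 1.17 times that of the library. One held 5 members over 82.3 kb of the kallikrein genes Klk11, Klk9, Klk6 and Klk5 on chromosome 7, proteases that loosen cell contacts in the outer epidermis, with 6 to 25 tags. Of these 5, 2 passed a −log10 q of 2, and the stretch also held 2 and 3 intervals of Msx2-KO replicates 1 and 2. One held 5 over 84.4 kb at Ets2, an ETS factor, and Psmg1 on chromosome 16, with 9 to 27 tags. That stretch held 0 and 2 intervals of Msx2-KO replicates 1 and 2. The third held 5 over 89.6 kb at Selenon and Man1c1 on chromosome 4, with 0 and 1 intervals of Msx2-KO replicates 1 and 2. In the other run, at Gm10553 on chromosome 1, the median local background was 4.71 times that of the library. Runs of 4 members followed, 5 in number, with a median local background from 1.00 at Nrip1 and Ttll2 to 18.0 times at Sfi1. The one with the largest −log10 q, at Apba2 on chromosome 7, held 41 to 61 tags at 9.21 times the background, with 98.1% repeat letters. Leaving out the 35 members with a local background over 3 times that of the library gave 19.6%. Along chromosomes the density ran from 1.09 members per Mb on chromosome 1 to 1.67 on chromosome 17, and the share of wide Msx2-WT intervals that were members from 15.3% on chromosome 11 to 24.0% on chromosome 5.

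Motif letters around the summit were also counted with promoters, summits of −log10 q up to 2 and intervals over 50% repeat letters set aside. This selection was made after the data were seen. The limit on repeat letters does not remove simple sequence that the reference leaves unmarked. The Gdf6 member, with 49 distinct words and 2.88% repeat letters, stayed in and held the E-box. How many such members stayed was not counted. It left 935 members, 5510 shared wide Msx2-WT intervals and 3563 intervals of the Msx2-KO replicate 2 set, with a median G+C content of 49.2%, 50.2% and 46.5%. The E-box CACCTG, bound by factors of the Snail, Zeb and E-protein families, was within 150 bases of 307 member summits (32.8%, 29.9 to 35.9), compared with 25.9% and 20.1%. The GATA site GATAAG was found at 152 (16.3%), compared with 11.5% and 8.78%. The homeobox core TAATTA, the kind of site that Msx and Lhx proteins bind, was found at 3.74% of members (2.70 to 5.16), 8.48% of shared intervals and 13.8% of the Msx2-KO replicate 2 set. The other homeobox form searched, TAATTG, stood at 7.06% (5.59 to 8.88), 10.7% and 15.6% in the same order. The NFI motif TTGGCA was also rarer in members, at 21.7% compared with 31.7% and 28.0%. The AP-1 site TGANTCA stood at 21.0%, 21.5% and 16.2%, and the RUNX site TGTGGT at 20.6%, 19.9% and 21.6%. The 13494 wide Msx2-KO replicate 2 intervals shared with the other lists, so selected, had TAATTA at 12.0%, the E-box at 21.8% and the GATA site at 9.52%. Against its own shared intervals, the Msx2-KO replicate 2 set thus differed less in TAATTA than against the members. All motifs were searched on both strands, the palindrome TAATTA reads the same on each, and none of these motifs contains another. Over all 15723 wide Msx2-WT intervals with no such selection, the E-box was found in 22.0%, the GATA site in 8.51% and TAATTA in 5.16%, against 22.6%, 10.8% and 4.87% of all members. Over all wide Msx2-KO replicate 2 intervals these stood at 20.6%, 7.92% and 8.50%. With no selection TAATTG was found in 8.14% of members (7.26 to 9.12), against 7.61% of all wide Msx2-WT and 10.9% of all wide Msx2-KO replicate 2 intervals. A match is letters in a window and was not read as binding.

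The set of Msx2-KO replicate 2 reached a −log10 q of 22.1. Its strongest intervals lay nearest to Olfr1505, Ch25h, Kidins220, Aqp11 and Acp7, with 23 to 28 tags, none within 1500 bases of a start site. None of these 5 had a simple-sequence window.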

How the data were processed

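Omni-ATAC-seq peak lists of 1 Msx2-WT and 2 Msx2-KO libraries were examined. The authors, by their methods, trimmed the reads, aligned these to GRCm38 (mm10) with BWA-MEM, removed mitochondrial reads and called peaks per library with MACS2, with an extension of 200 bases and duplicates kept. The methods name a q-value limit of 0.01, but the deposited lists go lower, and 30.0%, 53.2% and 47.5% of autosomal intervals (Msx2-WT, Msx2-KO replicates 1 and 2) had a −log10 q above 2. The authors deposited for each summit a fold enrichment (a ratio over the local background), −log10 p and −log10 q values and a score, the last not used. Lines with the same start and end were 1 interval, represented by its strongest summit. The tag number and local background were solved from the fold and −log10 p as a whole number, found for at least 99.95% of summits, and tested on simulated data. Summits were placed on GENCODE M21 (basic, protein-coding starts), and letters were read from the RefSeq copy of GRCm38.p6. Named genes were the 10 members with the largest −log10 q, the 5 widest, members at listed or family genes, genes with 3 or more members, the 5 largest runs (ties by −log10 q) and the 5 strongest of the Msx2-KO replicate 2 set. One gene that this rule names is not reported here. The members and lists were chosen with earlier results of these data known. Samples were grouped by the labels, and shares have 95% Wilson intervals. Alternatives changed the width, score, overlap, chromosome, promoter window, neighbour distance and gene rules, and left out each Msx2-KO library. Those on repeat letters, word counts, local background and epidermal genes were added after the data were seen. The tools were scipy 1.17.1, numpy 2.4.6, matplotlib 3.10.9, pandas 2.3.3 and Python 3.11.15.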

Additional observations from a re-analysis of the deposited data

How the results depend on the processing

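No paired analysis was possible because there was 1 Msx2-WT library. The number of members was 6625 (28.1% of wide Msx2-WT intervals) with a width minimum of 500 bases and 890 (13.3%) with 800, 1291 (10.3%) with −log10 q above 2 in the Msx2-WT list and 2064 (16.5%) with that limit in all 3 lists. It was 3023 (19.2%) with a margin of 1000 bases and 4117 (26.2%) where under 50% coverage counted as absent. Leaving out Msx2-KO replicate 1 gave 3513 (22.3%) and leaving out Msx2-KO replicate 2 gave 5946 (37.8%), so the size of the set rests on replicate 2. The set of Msx2-KO replicate 2 numbered 4386 at 800 bases, 4200 with −log10 q above 2 and 16442 under the 50% rule, with 12864 without Msx2-KO replicate 1.

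The promoter share of the members was 1.77% with a window of 500 bases, 6.10% with 3000, 4.12% by any base of the interval, 4.49% with −log10 q above 2 and 2.47% from 800 bases. It was 3.50% without Msx2-KO replicate 1 and 12.2% without replicate 2. For the Msx2-KO replicate 2 set it was 5.84%, 10.3%, 9.07%, 11.1% and 10.9% in the same order, and 9.03% without Msx2-KO replicate 1. The share of members with a neighbour was 4.18% within 10000 bases, 50.1% within 200000 and 14.8% with −log10 q above 2, and 21.3% and 33.4% without Msx2-KO replicates 1 and 2. Members in the named families were 14.8%, with 16.7% among those within 100000 bases of a start site and 59.7% with genes of any biotype, which adds Gm and Rik noncoding genes. With −log10 q above 2 the median −log10 q was 3.83 and the median tag number 12.

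The simple-sequence share was 13.5% with fewer than 60 words, 18.1% with fewer than 100 and 23.9% with −log10 q above 2, and 16.6% and 10.3% without Msx2-KO replicates 1 and 2. Members nearest to differentiating epidermis genes numbered 10 with −log10 q above 2, 8 with the margin of 1000 bases, 10 without Msx2-KO replicate 1 and 16 without replicate 2. Absence from a list is limited by depth for the members that scale to under 3 tags in a Msx2-KO library, and is uncertain for those little over 3.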
